A study of Sus scrofa with 6 samples.

Results

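Solute carriers are membrane proteins that move small molecules and ions across cell and organelle membranes. They were measured in the backfat of male pigs. The set was drawn from probe sets of the Affymetrix Porcine array that are annotated with a single gene symbol. It comprised every gene whose symbol begins with SLC and a digit, without the mitochondrial SLC25, the glucose SLC2A and the fatty acid SLC27A families. Probe sets with no symbol or with several symbol entries were left out. The rule gave 89 of the 6765 genes with a symbol, represented by 135 probe sets, and a gene was read from its brightest probe set. Of these 89 genes, 56 were bright enough to be tested and 33 were not. The name plasma membrane carriers covers only some of them. From textbook knowledge 19 of the 89 act chiefly in inner membranes such as the Golgi, the endoplasmic reticulum or lysosomes, and 2 others, SLC9A3R1 and SLC9A3R2, are cytoplasmic adaptor proteins that bear a carrier name. SLC8B1, here with the inorganic ion carriers, is a mitochondrial exchanger. Neither it nor SLC45A2, a carrier of melanosomes, is counted among the 19.

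The study compared boars, which are intact males, with barrows, which are castrated males. All came from Pietrain sires and Landrace dams, in 15 pairs of full brothers. At 7 days of age 1 brother of each pair was castrated by surgery under anaesthesia and the other was left intact. Weaning was at 30 days, feed was free, and subcutaneous fat from the middle layer over the 6th rib was taken at 175 days. RNA of 5 animals made 1 pool, so each group has 3 pools and 3 arrays. A p-value here reflects the scatter of pools, not of single pigs. Values are MAS5 signals, an array brightness on a linear scale. Differences are barrow minus boar on log2(signal + 16), a scale that understates the fold of dim genes. They were fitted by limma over 14399 probe sets, with a threshold of 0.05 for the p-value adjusted over all of them. This main fit did not pair the pools. In backfat, as in any bulk tissue, fewer cells of a type and less RNA per cell cannot be told apart.

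The families differ in what drives them. Some carriers let a substrate run down its own gradient, others use the sodium gradient that the sodium pump maintains, and antiporters swap 1 substrate for another. SLC22A3, the extraneuronal monoamine or organic cation transporter 3, belongs to the first kind and takes up noradrenaline, serotonin and histamine. In fat it is known from rodents as a route by which adipocytes remove noradrenaline, which monoamine oxidase then degrades. Some amino acid carriers of the SLC7 family work as pairs with a heavy chain, SLC3A2 or SLC3A1, while others such as SLC7A1 work alone. Fat cells also import vitamins for lipid synthesis, among them biotin, the cofactor of acetyl-CoA carboxylase, and pantothenate, the precursor of coenzyme A.

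The tissue label was checked against markers, while the boar and barrow labels and the replicate numbers were taken as given. The adipocyte genes ADIPOQ, FABP4 and LPL had boar mean signals of 22240, 18540 and 15500, and none of the 5 skeletal muscle markers with a probe set was bright enough to be tested. Among the markers of other cells only the endothelial TEK passed the threshold in the main fit. Of the 10 tested endothelial markers 9 had differences below 0, beside 53.4% of all tested probe sets. TEK fell (-0.47, limma adjusted p = 0.047), while CDH5 (-0.001) and VWF (-0.05) lay next to 0. The endothelial markers had summed signals of 17040 to 17740 in boar pools and 15030 to 15870 in barrow pools. Of the 8 tested macrophage markers 7 were below 0 and none passed, with overlapping sums of 8811 to 11140 and 8303 to 9616. MRC1 lay next to 0 (-0.02) and CD163 above it (0.15). The 4 tested lymphocyte markers were all below 0 and none passed, with overlapping sums of 567 to 890 and 550 to 677. Of the 8 tested adipocyte markers 5 were above 0 and LEP rose (0.58, adjusted p = 0.021), and their sums overlapped, at 82560 to 87920 and 78670 to 87080. Smooth muscle markers (3 of 8 above 0), fibroblast markers (5 of 7), red cell markers (3 of 4) and nerve markers (0 of 3) gave no call. With the replicate block C1QA (macrophage), KCNJ8 (pericyte) and DPT (fibroblast) also fell and FBLN1 (fibroblast) also rose. Among defining markers CD68, CSF1R, EMCN, MYH11 and PDGFRA had no probe set under these names. The part of these cells in the results below was not tested.

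Castration was accompanied by a change past the threshold in 1 solute carrier gene. SLC22A3 fell in barrows, and 0 of the 56 tested genes rose (limma). The background was 0.458% of all tested probe sets called lower and 0.701% called higher, and the members' 1 of 56 lower (1.79%) and 0 of 56 higher are too few to set against those shares. At an unadjusted p under 0.05 there were 4 lower (7.14%) and 5 higher (8.93%), against 6.22% and 5.96% of all tested probe sets. These shares are near the background, which also applies to the counts at an unadjusted p given by class below. With the replicate number as a block, the call was again 1 lower and 0 higher, against 0.854% and 1.49% of all probe sets. The median difference over the 56 was -0.02, against -0.01 over all tested probe sets, and 26 of 56 lay above 0. SLC22A3 was also the only tested member with an absolute difference over 0.5 (1.79%), a size that 3% of all tested probe sets passed. A difference over 0.3 was seen in 9 members (16.1%), against 13% of all probe sets.

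**Figure D1:**
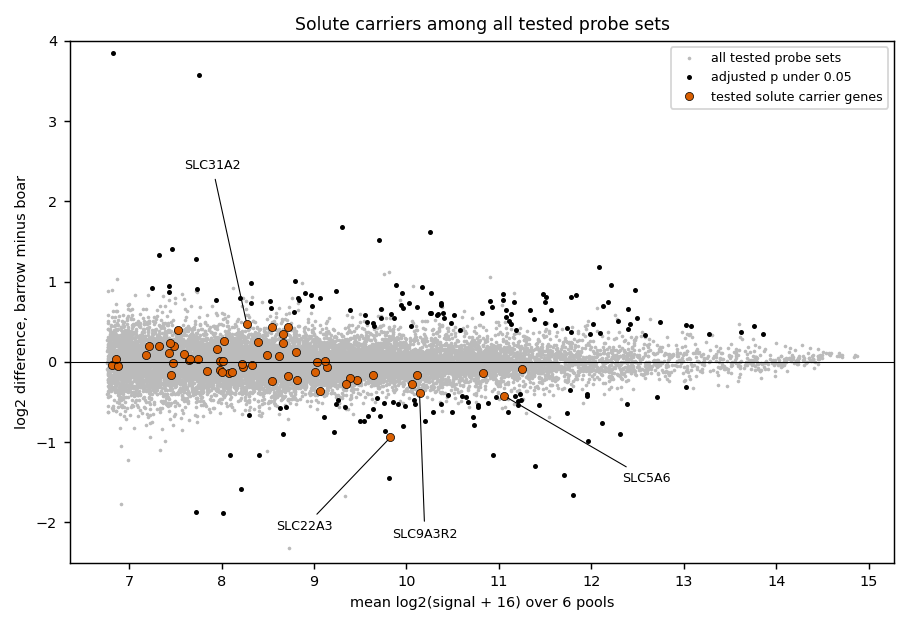
Difference between barrow and boar pools (vertical axis, log2) against mean log2(signal + 16) over the 6 pools (horizontal axis) for the 14399 tested probe sets in grey, those past the threshold in black and the 56 tested solute carrier genes in orange. SLC22A3 lies at -0.94, apart from the other orange points, which run from -0.43 to 0.47.

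SLC22A3 (gene identifier 100142677) was read from its only probe set. Its signals were 1350, 1108 and 1285 in boar pools 1 to 3 and 683, 647 and 592 in barrow pools 1 to 3. Every boar pool lay above every barrow pool, and the gap between the groups was wider than the range within either. The means were 1247 ± 125 and 641 ± 45.8 (SD, n = 3 each), a 1.92-fold higher signal in boars (95% CI 1.63 to 2.26). The log2 difference was -0.94 ± 0.10 (SE, adjusted p = 0.0027, and 0.0033 with the replicate block). Pools of the same number differed by -0.97, -0.76 and -1.10, all below 0 as they must be when the groups do not overlap. The gene passed the threshold under each of the 16 alternative settings, with differences from -1.02 to -0.88 and limma adjusted p from 6.5e-04 to 0.045. Ranked by p, SLC22A3 came at place 16 of all 14399 probe sets. The summed endothelial markers were also lower in every barrow pool (15030 to 15870) than in any boar pool (17040 to 17740). Their part in this result was not tested.

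The other organic ion carriers gave no such difference. SLC22A5, which imports carnitine, had 270, 288 and 382 in boars and 320, 334 and 252 in barrows, and the groups overlapped (-0.04, 95% CI -0.40 to 0.32). SLC22A6, an anion carrier of the kidney, had 79.4, 88.3 and 133 in boars and 123, 77.8 and 89.2 in barrows, close to the lowest tested level (-0.04, 95% CI -0.57 to 0.49). The kidney carriers SLC22A2 and SLC22A8 were too dim to be tested, with signals of at most 35.6 and 52.3. Neither interval reaches the difference of SLC22A3.

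Genes around monoamine uptake were described from a fixed list of 17, of which 6 had a probe set and 2 were tested. MAOA, which degrades noradrenaline and serotonin in the cell, had a log2 difference of 0.25 (limma adjusted p = 0.30) between boar and barrow means of 3231 and 3833. The adrenergic receptor ADRB3 had 0.28 (limma adjusted p = 0.63) between 166 and 207. Neither passed the threshold. Both fitted differences had the opposite sign to that of SLC22A3, but in both genes the groups overlapped and the pairs were mixed. MAOA had -0.04 in the pools numbered 2 and ADRB3 -0.11 in those numbered 3, with the other pairs above 0. ADRB1, ADRA2A, HNMT and MAOB were too dim. SLC6A4, the serotonin reuptake carrier of nerve endings and platelets, was also untested, at 52.3 to 55.4 in boars and 49.8 to 96.1 in barrows. SLC6A4 is named after its values were seen.

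**Figure D2:**
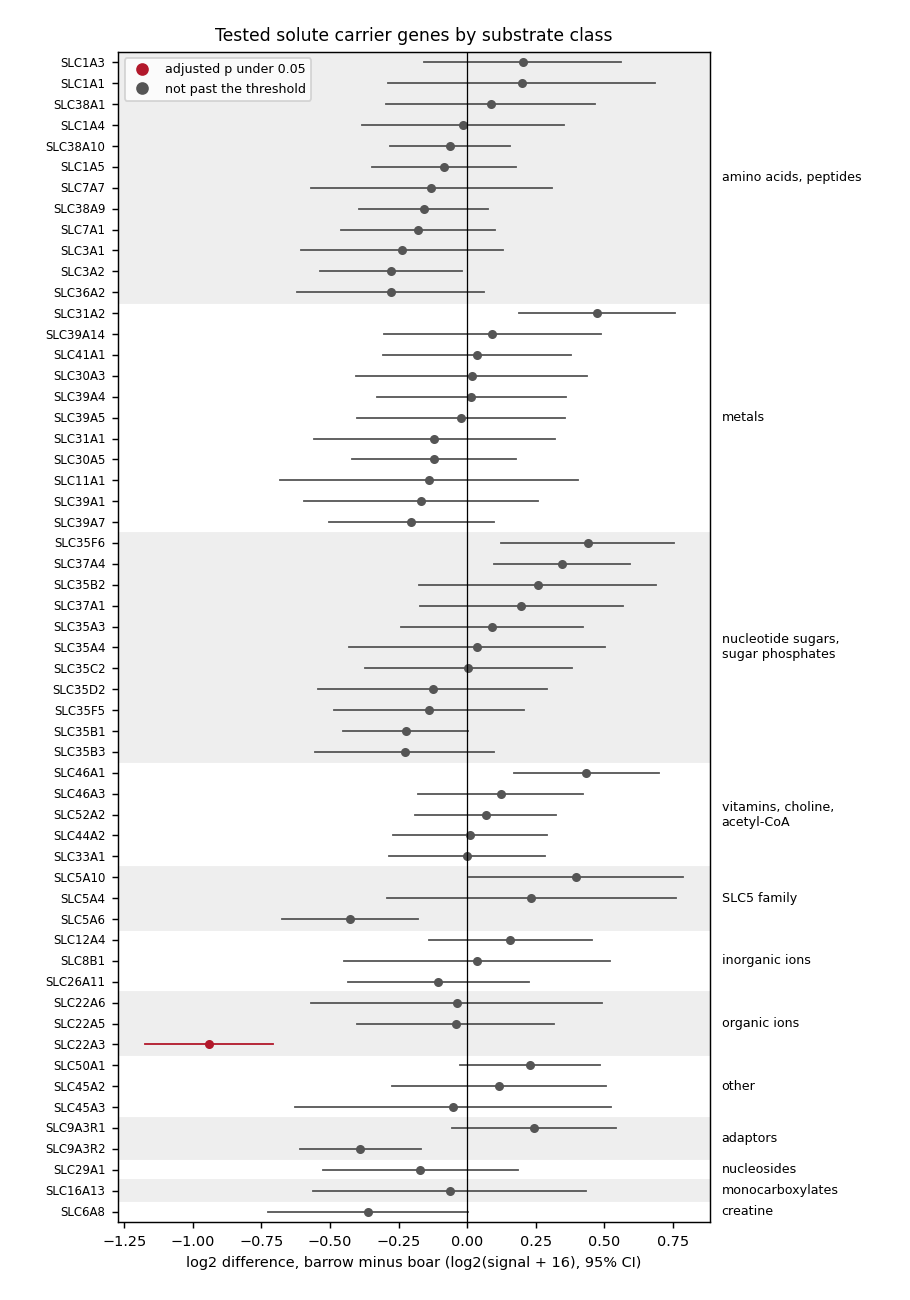
Log2 difference (barrow minus boar) with its 95% CI for the 56 tested genes, grouped by substrate class. Only the interval of SLC22A3 (red) belongs to a gene past the threshold. In the amino acid class 9 of the 12 genes lie left of 0, while the metal and nucleotide sugar classes lie on both sides.

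Amino acid and peptide carriers numbered 19, of which 12 were tested. None rose or fell past the threshold (0 of 12 by limma, also with the replicate block; 1 lower and 0 higher at an unadjusted p under 0.05). Their median difference was -0.11, with 9 of 12 below 0, beside a median of -0.01 and 53.4% below 0 over all tested probe sets. The median was -0.03 without boar replicate 1 and -0.05 without barrow replicate 3. Differences ran from -0.28 to 0.20, so each lay nearer to 0 than that of SLC22A3.

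The lowest fitted differences among them were those of both heavy chains and a proton-coupled carrier, and each became smaller without 1 pool. SLC3A2, the heavy chain that brings large neutral and cationic amino acid exchangers to the cell surface, had 707, 721 and 683 in boars and 611, 645 and 490 in barrows. The groups did not overlap, although barrow pool 2 came close to the boars, and the difference of -0.28 (95% CI -0.54 to -0.02) did not pass (adjusted p = 0.38). It was -0.16 without barrow replicate 3. SLC3A1, the heavy chain of cystine uptake in kidney and gut, had -0.24 (adjusted p = 0.63), with 510, 329 and 354 in boars and 369, 314 and 307 in barrows. Boar pool 1 stood far above the rest, and without it the difference was -0.05 (adjusted p = 0.96). The other SLC3A1 probe set was too dim to be tested and pointed the other way. It had 50.0, 57.3 and 56.6 in boars and 67.0, 71.1 and 57.8 in barrows, without overlap. SLC36A2, a proton-coupled carrier of small neutral amino acids also known as a surface marker of brown fat cells, had 1124, 1461 and 947 in boars and 1107, 847 and 921 in barrows. Most of its difference of -0.28 (adjusted p = 0.52) lay in the pools numbered 2, at -0.78, while those numbered 1 and 3 differed by -0.02 and -0.04. Without boar replicate 2 it was -0.11.

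Among the light chains and stand-alone carriers, SLC7A1, the main cationic amino acid carrier, had -0.18 (adjusted p = 0.63). SLC1A5, which exchanges glutamine and other neutral amino acids, had 2746, 2554 and 2185 in boars and 2145, 2788 and 2154 in barrows. These overlapped fully, and the 95% CI of -0.35 to 0.18 limits any difference. SLC38A9, the lysosomal carrier through which arginine is sensed by mTORC1, had -0.16 (adjusted p = 0.61), and its other tested probe set had -0.04. The glutamate carrier SLC1A3 was among the few above 0, at 0.20 (adjusted p = 0.68), with 3 of 3 same-number pairs higher. Of the other genes of amino acid sensing, 11 of 23 had a probe set, all were tested, 7 lay above 0, and 0 passed (2 higher at an unadjusted p under 0.05). ATF4, the transcription factor of the amino acid response, had 0.21 (limma adjusted p = 0.24), DDIT3 0.30 (limma adjusted p = 0.40) and the mTORC1 GTPase RRAGC 0.18 (limma adjusted p = 0.44).

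Inorganic ion carriers numbered 12, and 9 were too dim for a test. The 3 tested had a median of 0.04, and none passed (0 of 3 by limma, and 0 at an unadjusted p under 0.05). SLC12A4, a potassium chloride cotransporter that sets cell volume, had 221, 201 and 236 in boars and 249, 231 and 259 in barrows. The groups overlapped in the ranges 201 to 236 and 231 to 259, while the same-number pairs were all higher in barrows, by 0.16, 0.19 and 0.12 (fit 0.16, adjusted p = 0.70). SLC26A11, a sulfate and chloride carrier, had -0.10 (adjusted p = 0.85), and its dimmer probe set -0.27 (adjusted p = 0.58). SLC8B1, the sodium and calcium exchanger of mitochondria, had 0.04 (95% CI -0.45 to 0.52). The bicarbonate carrier SLC4A2 was untested but did not overlap, at 35.4, 44.3 and 65.8 in boars against 18.6, 11.9 and 22.7 in barrows. These signals lie well under the lowest tested mean of about 92.7, and SLC4A2 is named after its values were seen.

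Set side by side, the median differences of the organic ion, amino acid and inorganic ion carriers were -0.04, -0.11 and 0.04, over 3, 12 and 3 tested genes. No difference between these classes was tested. The genes that maintain ion gradients or escort carriers showed little movement. From a list of 21, 11 had a probe set and 7 were tested, with a median of 0.01 and 0 past the threshold (0 also at an unadjusted p under 0.05). ATP1B1, a subunit of the sodium pump, had 0.24 (limma adjusted p = 0.51), FXYD6, a regulator of that pump, -0.13 (limma adjusted p = 0.60), and BSG, the escort of monocarboxylate carriers, 0.13 (limma adjusted p = 0.69).

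Beside SLC22A3, the lower side held 3 genes without overlap between the groups, and the higher side 7. Together 4 of 56 were lower without overlap (7.14%) and 7 of 56 higher (12.5%), against 9.76% and 8.38% of all tested probe sets. These shares are near the background, so the genes are described by value only. In all 11 the same-number pairs pointed 1 way, as they must when the groups do not overlap.

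**Figure D3:**
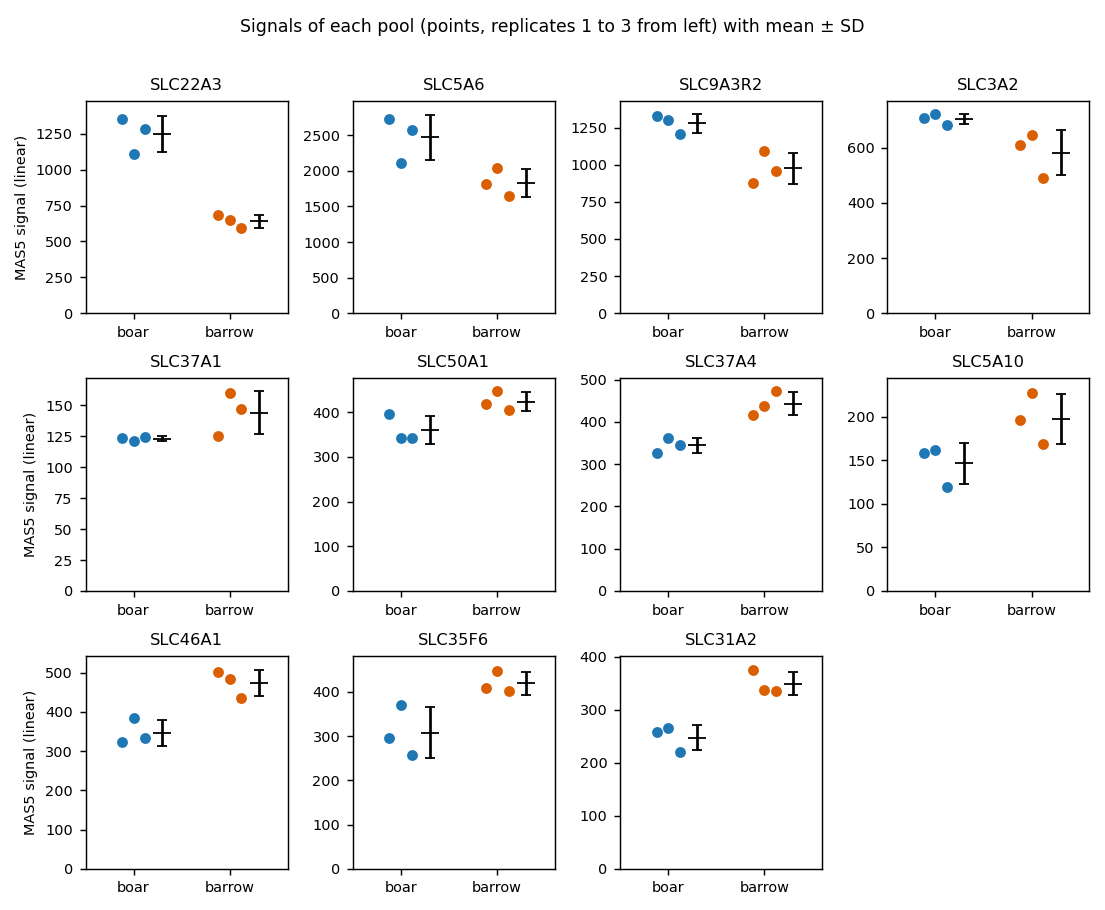
MAS5 signal (linear, from 0) of each pool for the 11 tested genes whose groups do not overlap; blue points are boar pools, orange points barrow pools, and bars give mean ± SD (n = 3). In SLC22A3 the groups are far apart, at 1108 to 1350 and 592 to 683, while in SLC5A6 and SLC37A1 the nearest pools of both groups almost meet.

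SLC5A6 brings biotin, pantothenate and lipoate into the cell with sodium. Its signals were 2724, 2118 and 2577 in boars and 1817, 2041 and 1643 in barrows, with boar pool 2 and barrow pool 2 nearly equal. The means were 2473 ± 316 and 1833 ± 200 (SD, n = 3 each). The difference of -0.43 ± 0.11 (SE) did not pass (adjusted p = 0.12). Leaving out boar replicate 2 gave -0.53 and leaving out barrow replicate 2 gave -0.51, both past the threshold (adjusted p = 0.0498 each). Array weights gave -0.49 (adjusted p = 0.025). Over all alternatives its adjusted p ran from 0.025 to 0.46. The biotin carrier had same-number pairs of -0.58, -0.05 and -0.65, whose shared sign follows from groups that do not overlap. As fitted, it was not beyond the threshold.

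SLC9A3R2, an adaptor that anchors ion carriers and receptors beneath the membrane, had 1328, 1298 and 1209 in boars and 880, 1089 and 958 in barrows. The groups were clearly apart, with a difference of -0.39 ± 0.10 (SE, adjusted p = 0.11, and 0.072 with the block). It was past the threshold once barrow replicate 2 was left out (-0.47, adjusted p = 0.028) and with array weights (-0.45, adjusted p = 0.022). Over all alternatives its adjusted p ran from 0.022 to 0.42. Its relative SLC9A3R1, the adaptor of sodium-proton exchangers in epithelia, had 0.24 (adjusted p = 0.53), from 293 ± 14.5 to 352 ± 50.3. The 2 adaptors thus had opposite signs, and neither passed.

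On the higher side the greatest difference belonged to SLC31A2, a low-affinity copper carrier of endosomes and the cell surface. Its signals were 258, 265 and 220 in boars and 374, 337 and 336 in barrows, and the groups were well separated. The fold of 1.39 (95% CI 1.14 to 1.69) did not pass (adjusted p = 0.13), also with the replicate block (adjusted p = 0.10). Its other probe set was too dim to be tested and did not show the rise. There the groups overlapped, at 57.3, 82.1 and 49.7 in boars and 45.3, 80.7 and 55.1 in barrows. The high-affinity copper importer SLC31A1 had -0.12 (adjusted p = 0.88), with 220, 176 and 287 in boars and 172, 194 and 254 in barrows. The copper carriers therefore showed no shared direction.

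SLC46A1, the proton-coupled folate carrier, had 323, 384 and 332 in boars and 501, 483 and 436 in barrows. The fold was 1.35 (95% CI 1.13 to 1.62, adjusted p = 0.13), and its dimmer probe set had a log2 difference of 0.51 (adjusted p = 0.49). In that probe set the groups overlapped, at 94.9, 63.5 and 156 in boars and 150, 163 and 131 in barrows. Its pools numbered 3 differed by -0.23, the other way. SLC46A3, a lysosomal member of that family, had 0.12 (adjusted p = 0.79). Riboflavin carrier SLC52A2 had 0.07 (adjusted p = 0.88), choline carrier SLC44A2 0.01 (adjusted p = 0.99) and SLC33A1, which admits acetyl-CoA to the endoplasmic reticulum, a 95% CI of -0.28 to 0.28 around a value next to 0. Of the 10 genes of this vitamin, choline, bile acid and acetyl-CoA class 5 were tested and 0 passed (1 higher at an unadjusted p under 0.05).

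SLC37A4 carries glucose 6-phosphate into the endoplasmic reticulum. It had 327, 363 and 344 in boars and 418, 439 and 472 in barrows, a 1.27-fold higher signal in barrows (95% CI 1.07 to 1.51, adjusted p = 0.22). Its other tested probe set had -0.04 (adjusted p = 0.95), so the probe sets disagreed. SLC35F6 had 295, 371 and 258 in boars and 408, 448 and 401 in barrows (0.44, adjusted p = 0.23), with 0.21 (adjusted p = 0.76) in its other probe set, which reached the tested level in barrows only. SLC37A1, a relative of SLC37A4, differed by 0.20 (adjusted p = 0.70), and its lowest barrow pool, 125.1, stood just above its highest boar pool, 124.6.

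The remaining members of the nucleotide sugar and sugar phosphate class went both ways. This class, whose carriers feed glycosylation and sulfation in the Golgi, also holds carriers of ATP and of a sulfate donor. SLC35B1, an ATP exchanger of the endoplasmic reticulum, had -0.22 (adjusted p = 0.42). SLC35B2 and SLC35B3 both import the sulfate donor PAPS, and had 0.26 (adjusted p = 0.66) and -0.23 (adjusted p = 0.59). SLC35F5 had 2084, 1817 and 1775 in boars and 1332, 2229 and 1694 in barrows, a wide spread around -0.14 (adjusted p = 0.79). Of the 12 genes in this class 11 were tested and 0 passed (2 higher and 0 lower at an unadjusted p under 0.05, against 5.96% and 6.22% of all probe sets), with a median of 0.04. The 18 tested carriers chiefly of inner membranes had a median of 0.00 and the 38 other members -0.03. Those 38 are not all carriers of the cell surface, since they include both adaptors, SLC8B1 and SLC45A2.

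SLC5A10, a sodium-coupled mannose and fructose carrier of the kidney, had 158, 162 and 120 in boars and 196, 227 and 169 in barrows (0.40, 95% CI 0.01 to 0.79, adjusted p = 0.40). SLC5A4, a relative of the sodium-glucose carriers, had 0.23 (adjusted p = 0.76), but 0.016 without boar replicate 3 and 0.076 without barrow replicate 2. SLC50A1, a sugar carrier of the SWEET family, had 396, 341 and 341 in boars and 419, 447 and 405 in barrows (0.23, adjusted p = 0.47). Barrow pools were the higher in all 3 genes and all 3 pairs, but only SLC5A10 and SLC50A1 had groups without overlap.

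Metal carriers numbered 13, of which 11 were tested and 0 passed (1 higher at an unadjusted p under 0.05, SLC31A2), with a median of -0.02. SLC39A7, which releases zinc from the endoplasmic reticulum, had -0.20 (adjusted p = 0.61) and 3 of 3 pairs lower. The zinc importer SLC39A1 had 1191, 1362 and 968 in boars and 1276, 1178 and 730 in barrows. Its pools numbered 3 were the lowest of each group, and its difference was -0.17 (adjusted p = 0.79), with 0.09 in its other probe set. SLC30A5, which loads zinc into the early secretory pathway, had -0.12 (adjusted p = 0.79), and 0.10 in its other tested probe set. SLC11A1, a metal carrier of macrophage phagosomes, had 212, 426 and 212 in boars and 226, 293 and 214 in barrows. Pool 2 was the highest in both groups, and the difference of -0.14 (adjusted p = 0.88) became 0.18 (adjusted p = 0.74) without boar replicate 2.

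SLC6A8, which imports creatine with sodium and chloride, had 682, 514 and 594 in boars and 587, 375 and 435 in barrows. The groups overlapped, yet each barrow pool lay below the boar pool of its own number, by -0.21, -0.44 and -0.44. The fitted difference was -0.36 (95% CI -0.73 to 0.00), with an adjusted p of 0.41, and 0.13 with the replicate block. SLC29A1, the equilibrative nucleoside carrier, had -0.17 (adjusted p = 0.74), also lower in 3 of 3 pairs. SLC16A13, a monocarboxylate carrier, had 315, 366 and 213 in boars and 304, 346 and 202 in barrows. Its pools of the same number differed by only -0.05, -0.07 and -0.07, and the pools numbered 3 were the lowest of each group. SLC45A2, a carrier of pigment cell melanosomes, and SLC45A3 had 0.12 and -0.05 (adjusted p = 0.86 and 0.97).

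Across the 56 tested members, 15 had all 3 same-number pairs lower in barrows (26.8%) and 11 had all higher (19.6%). Over all tested probe sets these shares were 20.5% and 17.5%, so the members' shares are near the background. The lower ones came from several classes. Among them were the amino acid genes SLC3A1, SLC3A2, SLC7A1, SLC36A2 and SLC38A10, and also SLC16A13, SLC29A1, SLC39A7 and SLC6A8. SLC38A10, which is outside the rule for named genes, had pairs of only -0.034, -0.068 and -0.085. The widest disagreement between pairs among the lower ones was that of SLC36A2.

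**Figure D4:**
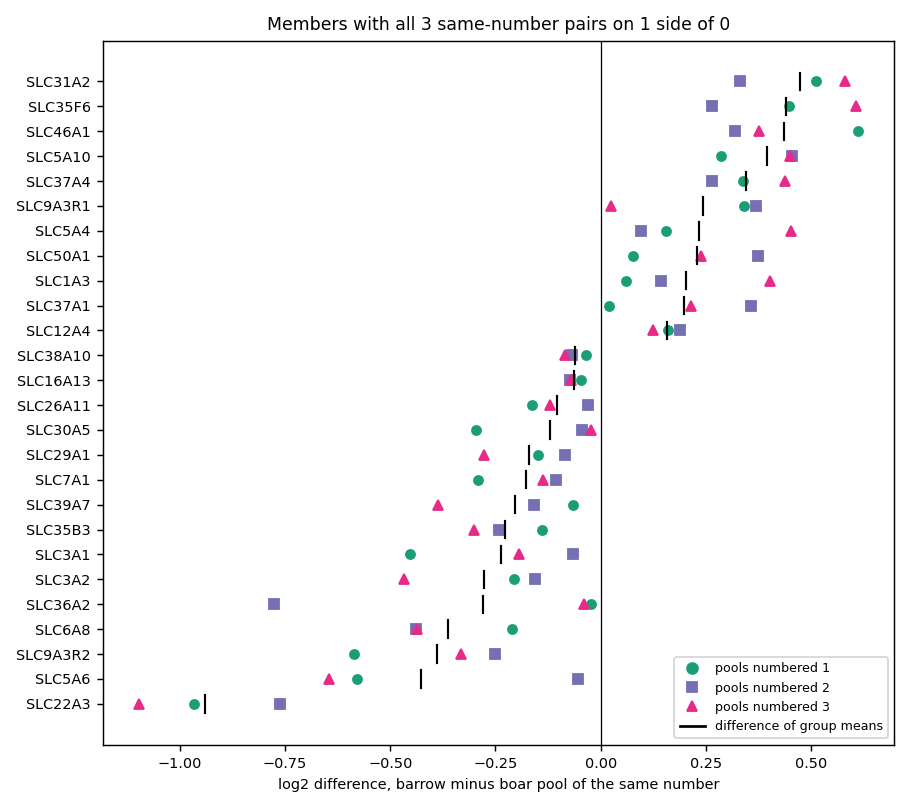
Log2 difference between the barrow and the boar pool of the same number (circle 1, square 2, triangle 3) for the 26 members whose 3 differences share a sign, with the difference of group means as a black bar. The 3 marks of SLC22A3 lie between -1.10 and -0.76, left of every other mark except the SLC36A2 square at -0.78.

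Where a gene had several tested probe sets, their directions were compared. Of the 56 genes 14 had more than 1 tested probe set, and in 8 of them all pointed 1 way, while in 6 they did not. Some of these differences lay next to 0, such as -0.001 for SLC33A1 and 0.01 for SLC44A2. Their signs therefore do not measure how far a single reading can be trusted. SLC22A3, SLC5A6, SLC3A2 and SLC9A3R2 had only 1 probe set each, so this check could not be made for them. The intervals of 24 of 56 genes lay within 0.5 of 0 on the log2 scale and those of 55 within 1, SLC22A3 being the exception.

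The 33 untested genes had mean signals from 5.70 to 98.7 with a median of 28.0, and are named here after their values were seen. Among them were carriers best known from gut, kidney or liver epithelium, namely the peptide importer SLC15A1 (8.21 to 12.7 over all pools), the intestinal glucose carrier SLC5A1 (1.93 to 46.5), the cystine light chain SLC7A9 (5.10 to 31.9), the sodium-proton exchanger SLC9A4 (2.61 to 8.97) and the bile acid importer SLC10A1 (3.77 to 30.4). The lactate exporter SLC16A3 had 1.90 to 48.9 and the sodium-calcium exchanger SLC8A1 6.49 to 41.2. Their groups overlapped. Beside SLC4A2, the glutamate carrier SLC1A2 was the only untested gene without overlap, at 9.57, 2.12 and 10.7 in boars and 21.2, 20.2 and 18.8 in barrows. Without detection calls, signals this low are not shown to stand above background.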

How the data were processed

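Backfat RNA of boars and barrows, pooled by 5 animals, was hybridised to 6 arrays. The values the authors deposited are linear signal intensities, 1 for each probe set of an array, made with MAS5 per the submitters' processing notes (version not given in the sources used here). Each array's trimmed mean (2% from each end) came to 500.1 after rounding, with medians of 161 to 173. No detection call was used, and precision is limited by having 6 arrays.

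Of 24123 probe sets, 124 controls were left out. Platform annotation gave 1 symbol to 10099, several to 198 (5 of these with an SLC symbol, left out) and none to 13826. The gene identifier of 88 of the 89 members was found in the RefSeq table (Sscrofa11.1) with the same symbol. Values were log2(signal + 16), and probe sets whose mean over the 6 arrays fell in the upper 60% were tested with limma 3.58.1 (R 4.3.3, lmFit and eBayes with intensity trend, 2-sided, Benjamini-Hochberg), after the code was tested on simulated data. No sequence was used here.

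Members, substrate classes, other lists and markers were chosen with earlier results of these data known. The naming rule took every member past the threshold, with or without the block, all SLC22 and SLC47 genes, per class the 6 smallest p and the brightest, and up to 3 genes per other list. Other untested genes and markers were named after their values were seen. Replicate numbers come from the titles, and the labels do not say that a number marks the same families. Correlations of residuals between a boar pool and its same-numbered barrow pool were 0.12, 0.17 and 0.26, all above 0.1. The main fit did not pair the pools, so its intervals and p-values leave any pairing out. A replicate block was run as an alternative, and differences between pools of the same number were given beside the fit. The other alternatives were pseudocount, filter, normalization, trend, array weights, mean of probe sets and leaving out each pool.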

Additional observations from a re-analysis of the deposited data

How the results depend on the processing

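SLC22A3 kept its direction and its call under all 16 alternatives run. The count of members lower in barrows was 1, but 3 with array weights, where SLC5A6 and SLC9A3R2 joined it, and 1 to 3 when 1 pool was left out; the count higher was 0 throughout. The replicate block left the members' calls as they were. Over all probe sets the count was 167, and 425 with array weights, 96 with no filter, 32 without the intensity trend, 338 with the replicate block and 24 to 291 when 1 pool was left out. With the upper 40% tested the medians were -0.083 for all members, -0.18 for amino acid carriers and -0.49 for organic ion carriers, since fewer genes were tested, and no inorganic ion carrier was left. The amino acid median was -0.17 with array weights and -0.151 to -0.026 when 1 pool was left out; the cause was not tested. Differences that changed sign belonged to genes far from the threshold. SLC33A1 had 0.017 with the mean of probe sets, 0.012 with median scaling and 0.017 with quantile normalization. With array weights SLC22A6 had 0.10 and SLC45A3 0.12. When 1 pool was left out the ranges were -0.30 to 0.18 for SLC11A1, -0.28 to 0.15 for SLC16A13, -0.14 to 0.10 for SLC22A5, -0.20 to 0.16 for SLC22A6, -0.28 to 0.051 for SLC31A1, -0.092 to 0.097 for SLC33A1, -0.33 to 0.042 for SLC35F5, -0.32 to 0.076 for SLC39A1, -0.091 to 0.12 for SLC44A2, -0.020 to 0.24 for SLC45A2, -0.28 to 0.16 for SLC45A3 and -0.092 to 0.23 for SLC8B1. For the 42 named members, 626 of 658 values kept direction and side of the threshold, 27 changed sign, 5 newly passed and 0 lost it.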
